A study of Mus musculus with 230 samples.

Results

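The glycolysis enzymes were 10 genes, taken by symbol from the 53278 genes of the count table: Hk1, Gpi1, Pfkp, Aldoa, Tpi1, Gapdh, Pgk1, Eno2, Pkm and Ldhb. All 10 were found, and all 10 were among the 14212 genes that passed the filter on low counts. The samples were sensory neurons of L4 and L5 dorsal root ganglia from mice of the cross C57BL/6 X CAST/Ei, which every group shares. The ganglia were dissociated with enzymes and the neurons were picked by hand. The intact and injured groups differ in surgery on the sciatic nerve, which carries the axons of these neurons. The time from surgery to sampling, the sex, the number of animals and the number of neurons in a low-input library were not given in the sources used here. There were 18 low-input RNA libraries, 3 intact and 3 injured at each of 1, 8 and 12 months of age. A further 69 single cells were 18 intact and 21 injured at 1 month and 8 intact and 22 injured at 1 year.

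Glycolysis splits glucose into pyruvate in the cytosol and yields ATP and NADH without oxygen. Hexokinase traps glucose as its phosphate, phosphofructokinase commits the sugar to breakdown, aldolase cleaves it, and the lower steps from glyceraldehyde-3-phosphate dehydrogenase to pyruvate kinase return ATP and NADH. Lactate dehydrogenase converts pyruvate and lactate into each other and so connects the pathway to lactate exchange between glia and neurons. Many steps have isoenzymes from separate genes, and Hk1, Pfkp, Aldoa and Eno2 are forms that are abundant in brain and nerve. Several of these genes are known targets of hypoxia-inducible factors, whose DNA-binding core is a short motif close to their start sites.

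The members lie on 6 chromosomes (GRCm38). Hk1 (hexokinase 1) is at chromosome 10, 62268855 to 62379908, on the minus strand, Gpi1 (glucose-6-phosphate isomerase) at chromosome 7, 34201330 to 34230336, minus, and Pfkp (platelet-type phosphofructokinase) at chromosome 13, 6579768 to 6648777, minus. Aldoa (aldolase A) is at chromosome 7, 126795234 to 126809108, minus. Chromosome 6 holds Tpi1 (triosephosphate isomerase, 124810586 to 124814296), Gapdh (glyceraldehyde-3-phosphate dehydrogenase, 125161715 to 125166467), Eno2 (neuronal enolase, 124760053 to 124769673) and Ldhb (lactate dehydrogenase B, 142490249 to 142507957), all minus. Pgk1 (phosphoglycerate kinase 1) is on chromosome X, 106187100 to 106203699, plus, and Pkm (muscle-type pyruvate kinase) on chromosome 9, 59656368 to 59679375, plus. These spans cover each gene from first to last exon.

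Promoter sequences show how the members differ in the motif that hypoxia-inducible factors recognise. RefSeq (GRCm38.p6) gave 14 promoters for the 10 members, each from 250 bases before to 50 bases after a start site. The letters ACGTG and GCGTG were searched on both strands, so that CACGT and CACGC also count and matches can overlap. Either motif was present in 8 of the 14 promoters, belonging to 7 of the 10 members, against 43.8% of 32851 promoters of the same length in RefSeq. The 8 include overlapping Aldoa promoters (chr7:126799205-126799504 and 126799129-126799428) that hold the same CACGT site, so this site is counted more than once. The members' promoters held a median of 20.5 CpG, against 7 over all promoters. Both motifs contain CG, so the motif and CpG comparisons are not independent. The 4 printed here span the range from 5 motifs in Hk1 to none in Eno2, with the motifs in capitals.
Pgk1, chrX:106186850-106187149, plus strand: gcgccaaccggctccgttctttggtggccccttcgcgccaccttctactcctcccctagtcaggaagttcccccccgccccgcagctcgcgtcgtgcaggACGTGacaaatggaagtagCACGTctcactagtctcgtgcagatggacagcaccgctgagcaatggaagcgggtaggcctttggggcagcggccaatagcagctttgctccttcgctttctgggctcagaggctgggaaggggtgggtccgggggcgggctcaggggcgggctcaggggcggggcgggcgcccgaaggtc
Hk1, chr10:62340372-62340671, minus strand: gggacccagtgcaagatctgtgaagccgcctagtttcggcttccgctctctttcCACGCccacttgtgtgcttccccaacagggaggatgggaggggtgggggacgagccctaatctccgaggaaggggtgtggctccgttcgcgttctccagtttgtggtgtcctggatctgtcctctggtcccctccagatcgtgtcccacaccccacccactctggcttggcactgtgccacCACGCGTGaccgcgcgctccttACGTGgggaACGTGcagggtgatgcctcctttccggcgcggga
Ldhb, chr6:142507908-142508207, minus strand: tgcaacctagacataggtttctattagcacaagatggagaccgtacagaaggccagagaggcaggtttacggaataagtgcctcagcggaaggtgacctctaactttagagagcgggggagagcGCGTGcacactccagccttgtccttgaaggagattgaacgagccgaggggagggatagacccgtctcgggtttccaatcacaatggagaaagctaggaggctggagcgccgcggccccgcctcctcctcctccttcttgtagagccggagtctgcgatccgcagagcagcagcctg
Eno2, chr6:124769624-124769923, minus strand: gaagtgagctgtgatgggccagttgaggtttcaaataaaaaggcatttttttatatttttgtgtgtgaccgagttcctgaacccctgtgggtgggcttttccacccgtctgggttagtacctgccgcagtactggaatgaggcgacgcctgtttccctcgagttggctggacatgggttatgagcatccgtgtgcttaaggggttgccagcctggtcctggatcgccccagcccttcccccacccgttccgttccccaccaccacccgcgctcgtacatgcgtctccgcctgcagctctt
In Pgk1 the motifs begin 150 and 131 bases before the start. In Hk1 they begin 196, 15 and 12 bases before and 7 and 16 bases after it, and the pair at 15 and 12 overlap. The other Hk1 promoter in RefSeq held none. In Ldhb the single motif begins 126 bases before the start. A match of letters is a description of the sequence and no evidence that a factor binds there.

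The low-input libraries held 7531967 to 19443627 counts of endogenous genes. A single feature, CT010467.1, took 29.4% to 59.7% of the counts of injured libraries and 40.4% to 93.8% of those of intact libraries, which left 770328 to 11587094 counts for all other genes. The second intact library at 12 months stood apart. It had the 93.8% share and the 770328 remaining counts, and 40.5% of these were mitochondrial. Many of the results below that rest on it are therefore given with and without it, but not all. Neuron markers were present in each library, with the 12 markers summing to 7634 to 23868 CPM (counts normalised to library size). Of these, Tubb3 was called higher (log2 change 0.99, edgeR adjusted p = 0.0236) and Rbfox3 lower (-1.16, adjusted p = 0.0420, and 0.0601 without the library just named) in injured libraries. Over 26 alternatives the call was lost in 7 for Tubb3 and in 15 for Rbfox3, among them the replicate block (edgeR adjusted p = 0.115 and 0.189) and the share of CT010467.1 as a covariate, where the log2 changes went to -0.03 and 0.56. Immune markers summed to 32.5 CPM or less, with the highest sum in the second intact library at 12 months. Without it they reached 4.71 CPM in intact (median 1.41) and 12.5 in injured libraries (median 3.45), and Csf1r and Cx3cr1, 2 of 4 tested, were called higher. DESeq2 called Csf1r with all libraries. Schwann cell markers summed to 244 to 348 CPM in intact and 367 to 423 in injured libraries at 1 month, which do not overlap, and 0 of 8 were called averaged over ages. Satellite glia markers summed to 592 to 855 CPM in intact and 1509 to 2390 in injured libraries at 1 month, to 307 to 603 and 470 to 996 at 8 months and to 399 to 2353 and 351 to 643 at 12 months. Of 9 satellite glia markers, Gja1 was called between conditions (log2 change 4.6, edgeR adjusted p = 0.0392), and without the second intact library at 12 months Ednrb was called as well. The call on Gja1 was lost in 14 of 26 alternatives, with the replicate block at an edgeR adjusted p of 0.0511. The 10 vascular and fibroblast markers summed to 0.435 to 77.7 CPM in intact (median 12.6) and 29.0 to 66.4 in injured libraries (median 48.8), with Cldn5 at 0 in all intact libraries. Of the 5 tested, Col1a2, a fibroblast collagen, was called higher in injured libraries, at 0.497 ± 0.931 CPM in intact and 2.72 ± 1.21 in injured ones (log2 change 3.93, edgeR adjusted p = 0.0254, and 0.0951 with the replicate block). Dcn, decorin, had 2.23 (adjusted p = 0.0535) and was called without the second intact library at 12 months. The part of these differences in the results below was not tested beyond the alternatives given beside them. The 12-month libraries held 0 counts of Ddx3y, Uty, Kdm5d and Eif2s3y, the Y-linked genes examined, so that sex and age cannot be told apart in comparisons with 12 months. The labels name no animals, so p-values measure only the spread between these libraries, which may be technical.

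Aldoa was the most abundant member for its length. To compare genes, CPM was divided by the kilobases of exon. On this scale the mean level of Aldoa over the 18 libraries was 324 ± 92 (SD) CPM per kb, the 43rd highest of the 14212 genes tested. Gapdh followed at 207 ± 67.4 and Tpi1 at 155 ± 49.7. Ldhb stood at 139 ± 99.7 and Pkm at 124 ± 36.7. The enzymes of the lower pathway Eno2 and Pgk1 had 73.9 ± 25.9 and 49.8 ± 16.5 CPM per kb. Gpi1, at the second step, had 39.0 ± 11.3. The 2 kinases that spend ATP were lowest, with 17.6 ± 3.70 CPM per kb for Pfkp and 12.3 ± 3.95 for Hk1, which ranked 1334 and 1809 among all genes tested. The order of neighbours held in every library for Aldoa above Gapdh (18 of 18). It held in 17 of 18 for Pkm above Eno2, Eno2 above Pgk1 and Gpi1 above Pfkp, in 16 of 18 for Gapdh above Tpi1 and Pfkp above Hk1, and in 15 of 18 for Pgk1 above Gpi1. Tpi1 exceeded Ldhb in 11 of 18 libraries and Ldhb exceeded Pkm in 8 of 18, so these 3 could not be ordered beyond their spread. Exon lengths are those of all annotated exons of a gene, and a transcript that lacks some of them has a higher level per kb than given here.

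The members differed in how far they varied between libraries. The ratio of the highest to the lowest CPM was 18.1 for Ldhb, 12.7 for Gapdh and 7.05 for Aldoa. It was smallest for Pfkp at 2.21 and for Pkm at 3.06. For Gpi1, Pfkp, Aldoa, Tpi1, Gapdh and Pkm the lowest value was in the second intact library at 12 months, where Gapdh was at 103 CPM against 441 to 1311 in the other 17. The lowest Ldhb value, 32.5 CPM, was instead in the first injured library at 8 months. The 10 members together summed to 4880 ± 534 CPM (SD, n = 3) in intact and 4610 ± 972 in injured libraries at 1 month. The sums were 3911 ± 1093 and 4713 ± 821 at 8 months, and 3671 ± 1984 and 4469 ± 569 at 12 months. Single intact libraries at 12 months summed to 5214, 1432 and 4366 CPM, and injured ones to 3858, 4983 and 4566. The value of 1432 belongs to the second intact library, so the lower intact mean at 12 months rests on that library. Intact and injured sums overlapped at each age.

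**Figure D1:**
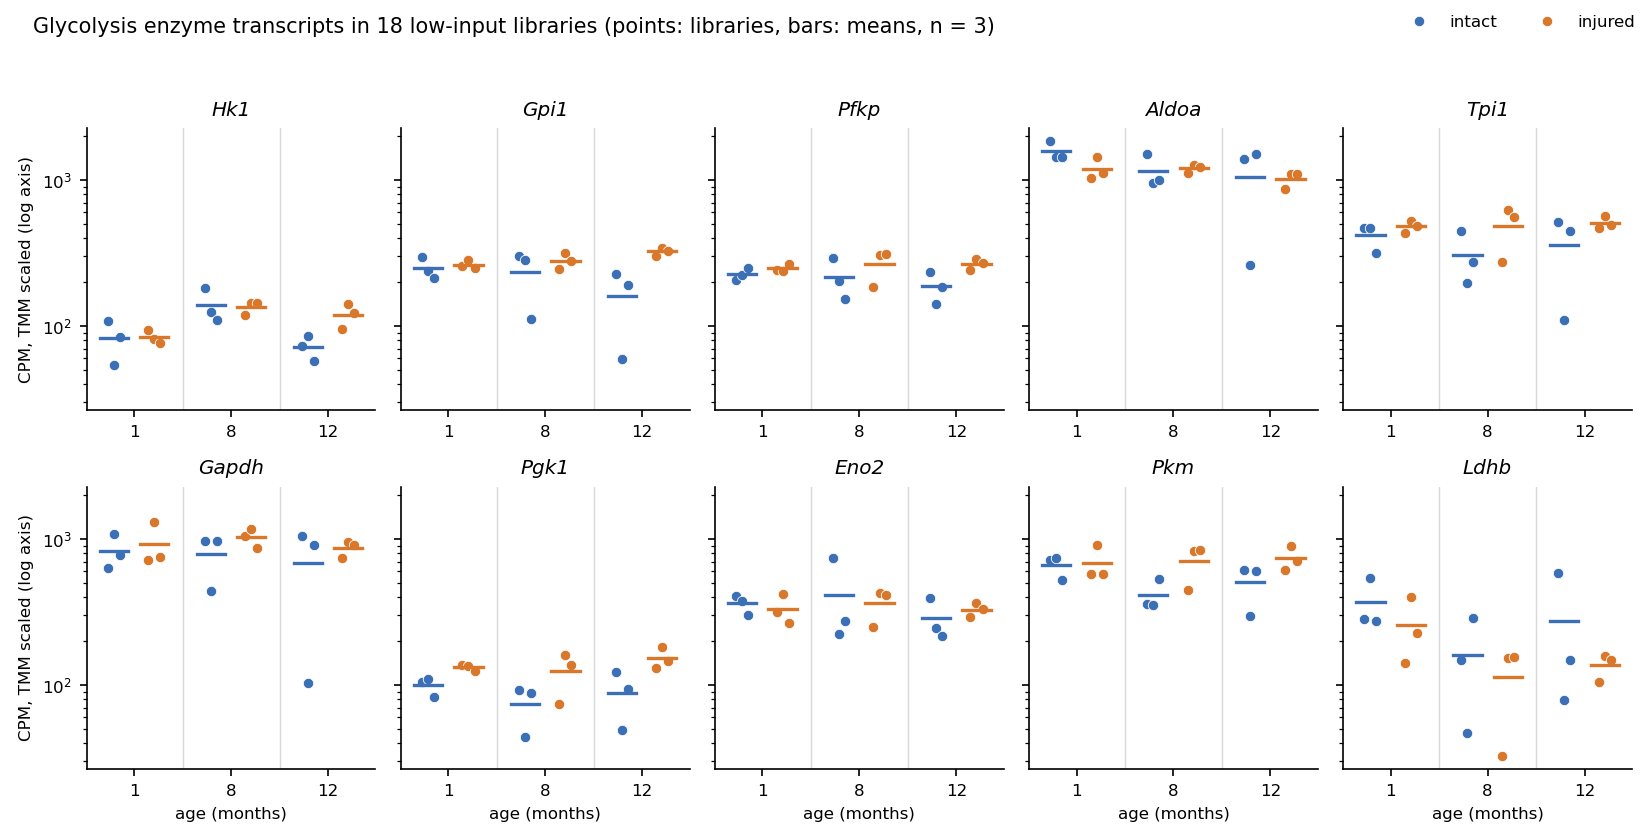
CPM of each member (log axis) in the 18 low-input libraries by age in months, with intact libraries in blue and injured in orange, points for libraries and bars for means of 3. The lowest Gapdh point, 103 CPM, is the second intact library at 12 months, and Pgk1 is higher in all injured than in all intact libraries at 1 and at 12 months.

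No member passed the test for a change with nerve injury averaged over the 3 ages. This comparison asks which transcripts differ in injured neurons across ages. With edgeR's quasi-likelihood test and Benjamini-Hochberg adjustment over all genes, 0 of 10 members had an adjusted p below 0.05, against 6.18% of the 14212 genes tested (5.11% higher and 1.07% lower in injured libraries). Pgk1 and Pkm, 2 of 10, had an unadjusted p below 0.05, against 20.3% of all genes. The fitted log2 change was positive for 7 members and negative for 3, with a median of 0.30 against 0.03 for all genes. Negative values belonged to Aldoa, Eno2 and Ldhb. DESeq2 called 1 of 10, Pgk1 (adjusted p = 0.0345), against 8.5% of the genes it tested. Calls by limma-voom numbered 0 of 10, and its share over all genes is not given here.

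Pgk1, which makes the first ATP of the lower pathway, came closest to a change. It ranged from 43.8 to 122 CPM in intact libraries (median 92.2, n = 9) and from 74.5 to 183 in injured ones (median 136, n = 9). At 1 month the values were 105, 109.7 and 83.2 CPM in intact and 136, 135 and 125 in injured libraries. All 3 injured libraries exceeded all 3 intact ones there. At 8 months they were 92.2, 43.8 and 87.6 against 74.5, 161 and 137 CPM, which overlap. At 12 months they were 122, 48.8 and 93.2 against 131, 183 and 145 CPM, which do not. The averaged log2 change was 0.64 ± 0.21 (SE), a 1.56-fold difference with a 95% interval of 1.16 to 2.10 (edgeR p = 0.00609, adjusted p = 0.0745). Without the second intact library at 12 months it was 0.56 (edgeR adjusted p = 0.0607), a fit that called 9.92% of all genes. It passed the threshold without the first intact library at 12 months (edgeR adjusted p = 0.0405), in a fit that called 7.11% of all genes. It also passed without the first injured library at 8 months (edgeR adjusted p = 0.0331), where 7.37% of all genes were called.

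Pkm, whose splice forms make the last ATP of the pathway, ranged from 296 to 742 CPM in intact libraries (median 528) and from 447 to 905 in injured ones (median 710.1). Its averaged log2 change was 0.45 ± 0.20 (edgeR p = 0.0348, adjusted p = 0.202), and 0.37 without the second intact library at 12 months. The difference was 0.05 at 1 month, 0.77 at 8 months and 0.54 at 12 months. At 8 months the intact values were 358, 354 and 528 CPM and the injured values 447, 830.2 and 834, so 1 injured library lay within the intact range. The counts are per gene and do not separate the splice forms.

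Ldhb had a negative fitted difference with a wide error. It ranged from 46.6 to 589 CPM in intact libraries (median 276) and from 32.5 to 400.2 in injured ones (median 152). The averaged log2 change was -0.68 ± 0.42, with a 95% interval of -1.56 to 0.21 (edgeR adjusted p = 0.393). It ranged from -0.83 to -0.26 when single libraries were left out, with -0.26 without the first intact library at 12 months, so its size does not rank reliably above that of Pgk1 (0.55 to 0.75). At 12 months the 3 intact libraries held 589, 79.5 and 149 CPM, so that 1 library carried most of the intact mean. The 3 injured libraries held 105, 157 and 147 CPM. The conditions overlapped at each age.

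The upper enzymes gave small differences. Hk1 ranged from 54.4 to 182 CPM in intact (median 84.9) and from 76.2 to 144 in injured libraries (median 119), a log2 change of 0.24 ± 0.17. Gpi1 ranged from 59.6 to 302 CPM (median 229) and from 245 to 344 (median 283), a change of 0.45 ± 0.23. That change was 0.33 without the second intact library at 12 months. Pfkp ranged from 141 to 293 CPM (median 207) and from 186 to 312 (median 266), a change of 0.32 ± 0.17. None of the 3 passed the test (edgeR adjusted p = 0.446, 0.290 and 0.301). Aldoa, which splits fructose-1,6-bisphosphate, ranged from 264 to 1858 CPM in intact (median 1443) and from 872 to 1432 in injured libraries (median 1119). Its log2 change was -0.13 ± 0.25 (edgeR adjusted p = 0.826) and -0.28 without the second intact library at 12 months. Tpi1, which interconverts the 2 triose phosphates, had 110.2 to 519 CPM in intact (median 448) and 276 to 624 in injured libraries (median 496), a change of 0.45 ± 0.26. That change was 0.32 without the same library.

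The fitted changes of Gapdh and Eno2 were smaller than their errors. Gapdh, the NADH-forming step, had the same median of 911 CPM in both conditions, with ranges of 103 to 1084 in intact and 722 to 1311 in injured libraries. Its fitted log2 change was 0.29 ± 0.32 (edgeR adjusted p = 0.657), and 0.13 without the second intact library at 12 months. Eno2 ranged from 215 to 744 CPM in intact (median 303) and from 249 to 427 in injured libraries (median 332). The log2 change was -0.04 ± 0.23, with a 95% interval of -0.52 to 0.44 (edgeR adjusted p = 0.959). A miss of the threshold leaves differences of the size of these intervals possible.

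These signs depended on how library composition was treated. With the share of CT010467.1 in each library as a covariate, 0 of 10 members were called, and 6 of the 7 positive log2 changes turned negative. Pgk1 went to -0.30, Pkm to -0.33, Gpi1 to -0.40, Pfkp to -0.29, Tpi1 to -0.91 and Gapdh to -0.88. Hk1 stayed positive at 0.31, and Ldhb went to -2.91 (edgeR adjusted p = 0.0908). The same covariate fit called 3 of 8 known nerve injury genes (Npy, Nts and Sprr1a), against 7 of 8 without the covariate. It called 0 of 8 tested glucose and lactate carriers and 0 of 7 pentose phosphate genes, against 2 and 2 without it. How many of all genes this fit called is not given here, so its 0 of 10 members has no background beside it. The CT010467.1 share was 29.4% to 59.7% in injured and 40.4% to 93.8% in intact libraries, so share and condition are partly confounded in this fit. Scaling to ERCC spike-ins, RNA added in a fixed amount, gave all genes a median log2 change of 2.896 and the members changes of 2.18 to 3.58. On that scale all 10 members were called higher in injured libraries, and 94.9% of all genes were called in either direction, so the members' count is near the background. Relative to the median shift, Pgk1 was above by 0.68, Ldhb below by 0.72 and Aldoa below by 0.20. At 12 months the same scaling called all 10 members and 96.2% of all genes, and for intact libraries at 12 against 1 months all 10 and 89.9%. In bulk libraries, more cells and more RNA per cell cannot be told apart.

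**Figure D2:**
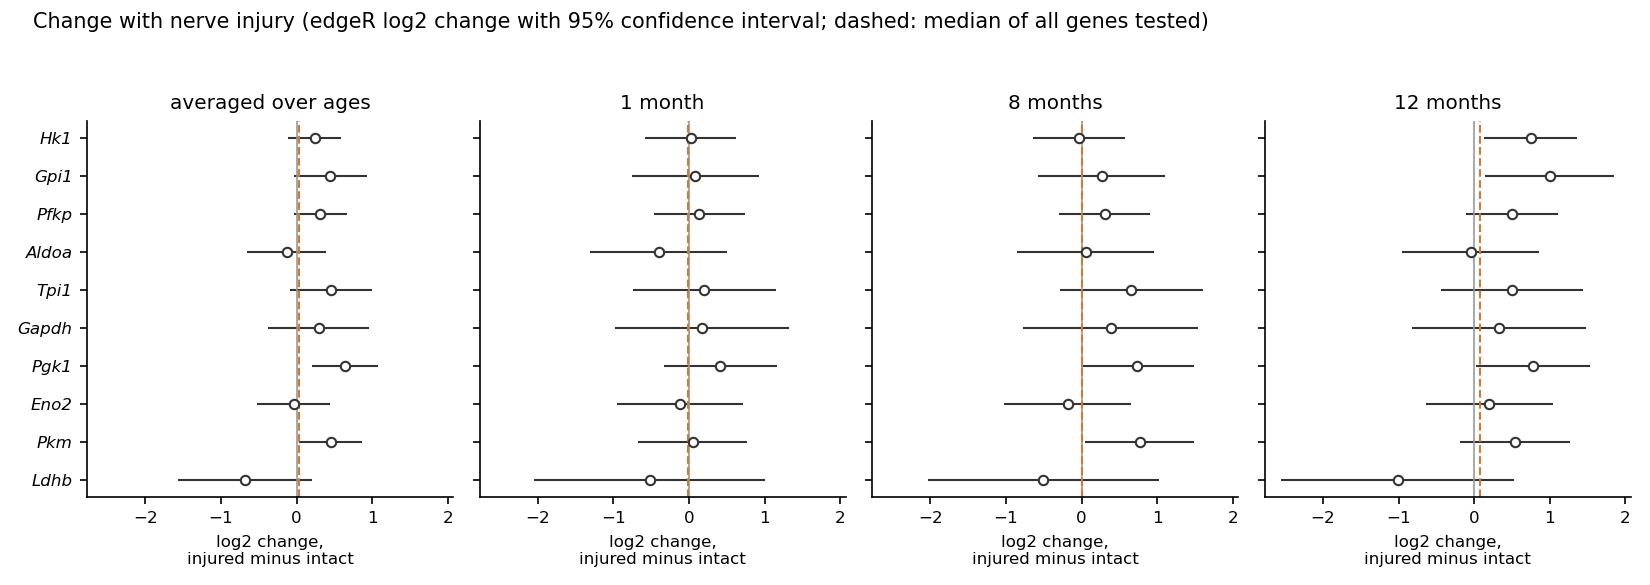
The edgeR log2 change of each member, injured minus intact, with its 95% confidence interval, averaged over ages and at 1, 8 and 12 months, and the median of all genes tested as a dashed line. Averaged over ages the intervals of Pgk1 (0.21 to 1.07) and Pkm (0.04 to 0.87) exclude 0 before adjustment.

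Within single ages no member passed the test either. At 1 month 0 of 10 were called, against 0.232% of all genes, and the members' median log2 change was 0.06. At 8 months 0 of 10 were called, against 0.957%, with a median of 0.29. Pkm, 1 of 10, had an unadjusted p below 0.05 there, against 12.2% of all genes. At 12 months 0 of 10 were called, against 2.99%, with a median of 0.50 against 0.08 for all genes. Hk1, Gpi1 and Pgk1 had an unadjusted p below 0.05 at 12 months, against 18.6% of all genes. DESeq2 and limma-voom called 0 of 10 at each of the 3 ages, where their shares over all genes are not given here.

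At 12 months injured libraries were higher without overlap for 5 of 10 members, Hk1, Gpi1, Pfkp, Pgk1 and Pkm, against 19.2% of all genes. Conditions did not overlap in either direction for 25.9% of all genes. Gpi1 was at 229, 59.6 and 192 CPM in intact and at 301, 344 and 327 in injured libraries, a log2 change of 1.00 ± 0.40 (edgeR adjusted p = 0.186). Without the second intact library, the low one, it was 0.63. Hk1 was at 72.8, 84.9 and 57.8 CPM in intact and at 95.6, 141 and 122 in injured libraries, a change of 0.75 ± 0.29 (edgeR adjusted p = 0.176). For Hk1 the change was 0.88 without the same library (edgeR adjusted p = 0.0866), which was not low for this gene. Leaving it out turned Gapdh from 0.33 to -0.17 and lowered Aldoa from -0.04 to -0.50 and Tpi1 from 0.50 to 0.08.

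At 1 month the conditions did not overlap for 2 of 10 members, against 17.8% of all genes, and at 8 months for 0 of 10, against 14.3%. The 2 members were Pgk1, higher in injured libraries, and Aldoa, lower. Aldoa was at 1858, 1443 and 1448 CPM in intact and at 1035, 1432 and 1126 in injured libraries at 1 month, a log2 change of -0.40 ± 0.43 (edgeR adjusted p = 1.00). The effect of injury was compared between ages by the joint interaction test of edgeR. It called 0 of 10 members and 0 of 14212 genes, and the lowest adjusted p among members was 0.753, for Hk1.

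Age comparisons within a condition called no member. In intact libraries 0 of 10 were called at 8 against 1 months (0.922% of all genes), 12 against 1 months (0.246%) and 12 against 8 months (6.69%). In injured libraries the same count of 0 of 10 stood against 0.225%, 0.113% and 0.0633%. An unadjusted p below 0.05 occurred for Hk1 alone, 1 of 10, in 3 comparisons. For intact libraries these were 8 against 1 months (16.2% of all genes) and 12 against 8 months (25.3%). For injured libraries it was 8 against 1 months (4.99%). Between 1 and 12 months the fitted change in intact libraries was negative for all 10 members, with a median of -0.31 against -0.10 for all genes. Without the second intact library at 12 months it was negative for 6 and positive for 4 (Tpi1, Gapdh, Pgk1 and Ldhb), with a median of -0.12 against -0.13. The intact mean of Hk1 was 82.6 ± 27.3 CPM (SD, n = 3) at 1 month, 139 ± 37.9 at 8 months and 71.8 ± 13.6 at 12 months. The log2 change was 0.75 ± 0.29 from 1 to 8 months (edgeR adjusted p = 0.203) and -0.96 ± 0.29 from 8 to 12 months (edgeR adjusted p = 0.0580). Hk1 passed at 12 against 8 months without the second intact library at 12 months (edgeR adjusted p = 0.0259) or without the third intact library at 8 months (0.0382), and with DESeq2 (0.0233). It also passed with TMM computed without CT010467.1 (edgeR adjusted p = 0.0453). These fits called 14.3% of all genes without that 12-month library, 9.69% without that 8-month library, 15.2% of those DESeq2 tested and 7.05% with TMM without CT010467.1. In injured libraries the change of Hk1 from 1 to 8 months was 0.69 ± 0.29 (edgeR adjusted p = 0.882). These comparisons share groups, so their values are not independent.

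The share of each member among its isoenzymes was measured within a library, where scaling between libraries plays no part. The share is the percent of counts per kb of exon that falls on the member. Hk1 held 99.6% ± 0.253 (SD, n = 9) of hexokinase counts in injured and 99.5% ± 0.871 in intact libraries, the rest being Hk2, the form of muscle and fat. Aldoa held 94.3% ± 2.68 and 89.9% ± 6.86 against Aldoc, the form of brain and glia. Pfkp held 40.6% ± 5.44 and 35.6% ± 11.5, with Pfkl and Pfkm, the liver and muscle forms, making up the rest. Eno2 held 48.0% ± 3.78 and 57.5% ± 14.4 against Eno1, the enolase of most cells. Counts that fell on Eno1b, a near copy of Eno1, were not part of this share. Ldhb held 57.5% ± 18.9 and 58.8% ± 18.5 against Ldha, the form named for muscle. On this per-kb scale a single form dominated at the hexokinase and aldolase steps. On the same scale 2 or 3 genes shared the phosphofructokinase, enolase and lactate dehydrogenase steps. The phosphofructokinase share rests on exon lengths of 13401 bp for Pfkp, 6675 for Pfkl and 2957 for Pfkm. Without division by length Pfkp was well above the others, at 756 CPM pooled over all single cells, against 86.4 for Pfkl and 210 for Pfkm.

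None of the 5 shares passed a test between conditions. The exact permutation test within ages (two-sided, 9 against 9 libraries, 8000 arrangements) gave adjusted p = 0.275 for enolase and for aldolase. The same exact test gave adjusted p = 0.388 for phosphofructokinase, 0.768 for hexokinase and 0.875 for lactate dehydrogenase, over the 5 shares. The widest difference was for enolase, where injured libraries had a share of Eno2 lower by 9.43 percentage points (exact permutation p = 0.074 before adjustment). The second intact library at 12 months had the highest Eno2 share, 87.1%, and without it the difference, injured minus intact, was -5.72 percentage points (exact permutation p = 0.127 before adjustment). Leaving out the third intact library at 12 months gave the other end of the range, -12.3 points. The second intact library at 12 months also had the lowest Aldoa share, 77.2%, on 184 counts of Aldoa and Aldoc. Without single libraries the aldolase difference, injured minus intact, ranged from 2.83 to 5.65 percentage points. For phosphofructokinase the 1-month libraries did not overlap, with a Pfkp share of 37.2% to 44.1% in injured and 35% to 36.3% in intact libraries. The Ldhb share varied most between libraries, from 12.1% in the first injured library at 8 months to 84.0%.

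**Figure D3:**
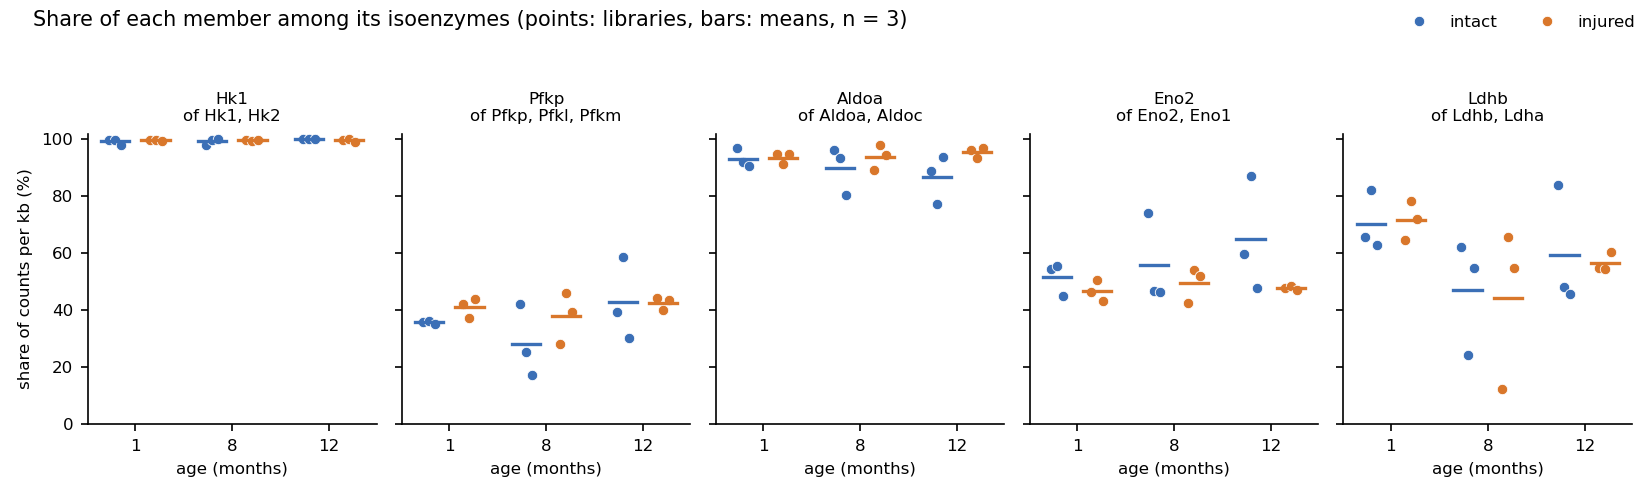
Percent of isoenzyme counts per kb that falls on Hk1, Pfkp, Aldoa, Eno2 and Ldhb in each low-input library by age, intact in blue and injured in orange, with bars for means of 3. Hk1 lies at 97.9% or above in every library and Ldhb spreads from 12.1% to 84.0%.

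The genes around glycolysis were read as lists in the averaged injury comparison. Of 19 other isoenzymes and mutases of the pathway, 13 were tested. By edgeR 0 of these were called, against 6.18% of all genes, and 3 had an unadjusted p below 0.05, against 20.3%. DESeq2 called 1, against 8.5% of the genes it tested, and limma-voom called 0. The median log2 change of the 13 was -0.05. Eno1 was at 302 ± 110.1 CPM (SD, n = 9) in intact and 417 ± 31.5 in injured libraries, a change of 0.50 ± 0.25 (edgeR adjusted p = 0.269), and was called without the second intact library at 12 months, at 0.35 (edgeR adjusted p = 0.0326). Aldoc was at 103.6 ± 55.8 and 62.0 ± 35.3 CPM, a change of -0.79 ± 0.35 (edgeR adjusted p = 0.219). Ldha was at 299.6 ± 99.4 and 242 ± 103.7 CPM, a change of -0.33 ± 0.23, and Pgam1, the mutase between Pgk1 and enolase, at 164 ± 82.3 and 189.6 ± 59.6 CPM, a change of 0.23 ± 0.24. Pfkl and Pfkm had changes of -0.27 ± 0.24 and -0.09 ± 0.21. Hk2 was under 1 CPM in the mean of both conditions. Eno1b, a near copy of Eno1 in the annotation with which reads may be shared, had a change of 0.46 ± 0.16 (edgeR adjusted p = 0.0957). DESeq2 called it (adjusted p = 0.0383). In age comparisons edgeR called Eno1b higher at 8 and at 12 against 1 months in both conditions, calls lost in 1 to 5 of 26 alternatives.

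Glucose and lactate carriers gave 2 calls among 8 tested members of a list of 12, both higher in injured libraries. Over all genes tested, 5.11% were called higher. Slc2a1, the glucose carrier GLUT1, rose from 9.70 ± 4.58 CPM (SD, n = 9) in intact to 27.7 ± 10.7 in injured libraries, a log2 change of 1.44 ± 0.24 (edgeR adjusted p = 0.0015). At 1 month intact libraries held 10.2 ± 3.13 CPM of Slc2a1 (n = 3) and injured libraries 19.03 ± 2.79. The corresponding means were 12.6 ± 5.38 and 25.5 ± 8.23 CPM for 8 months, and 6.35 ± 3.95 and 38.5 ± 9.25 CPM for 12 months. Slc16a1, the monocarboxylate carrier MCT1 that moves lactate, rose from 12.97 ± 7.34 to 36.0 ± 12.3 CPM, a change of 1.38 ± 0.34 (edgeR adjusted p = 0.0199). With the replicate number as a block, Slc16a1 no longer passed (1.501, edgeR adjusted p = 0.0793), and with the CT010467.1 share as a covariate it went to -0.26. Slc2a1 kept a positive change with that covariate, 1.46, without passing the test (edgeR adjusted p = 0.267). The median of the 8 was 0.17.

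The pentose phosphate pathway, which branches from glucose-6-phosphate, had 2 of 7 tested genes called and a median log2 change of 0.36. Both calls were higher in injured libraries, against 5.11% of all genes. G6pdx, its entry enzyme, rose from 21.6 ± 8.01 to 41.3 ± 9.56 CPM, a change of 0.92 ± 0.18 (edgeR adjusted p = 0.00426), and went to 0.58 with the covariate (adjusted p = 0.533). Tkt, transketolase, which returns sugars to glycolysis, rose from 117 ± 43.8 to 155 ± 32.4 CPM, a change of 0.46 ± 0.13 (edgeR adjusted p = 0.0368). The call on Tkt was lost in 15 of 26 alternatives, with adjusted p-values of 0.0558 to 0.472, and 12 of these left out a single library. With the replicate block its adjusted p was 0.187, while G6pdx passed at 0.0420.

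Pdk4, a kinase that closes the entry of pyruvate into mitochondria, was the 1 call among 14 genes of that list, against 6.18% of all genes. It was at 0.0551 ± 0.153 CPM in intact and 1.18 ± 1.13 in injured libraries, with 9 and 160 counts in all, so the gene was near the limit of detection. Its call was lost in 12 of 26 alternatives, of which 9 left out a single library and 1 was the replicate block (edgeR adjusted p = 0.137). The control genes of phosphofructokinase and gluconeogenesis gave 0 of 9 by edgeR (2 with an unadjusted p below 0.05, and 2 called by DESeq2). Glycogen genes gave 0 of 10 and genes of the hypoxia-inducible factor pathway 0 of 13, each with 1 unadjusted p below 0.05 and 0 called by DESeq2. Their median log2 changes were 0.18, 0.05 and -0.04. Over all genes 6.18% were called by edgeR, 20.3% had an unadjusted p below 0.05, and DESeq2 called 8.5% of those it tested. Pfkfb4, which makes an activator of phosphofructokinase, had an edgeR adjusted p of 0.0467 at 12 months (log2 change 2.12). That call was lost in 18 of 27 alternatives, 14 of which left out a single library, with adjusted p-values of 0.0519 to 0.569, among them 0.186 with the replicate block. Averaged over ages the change was 1.01 ± 0.30 (adjusted p = 0.0555). Without the second intact library at 12 months the averaged value was 0.92 (adjusted p = 0.0297). As a check on the injury itself, 7 of 8 known nerve injury genes were called, all higher, and 3 of 8 with the share of CT010467.1 as a covariate.

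**Figure D4:**
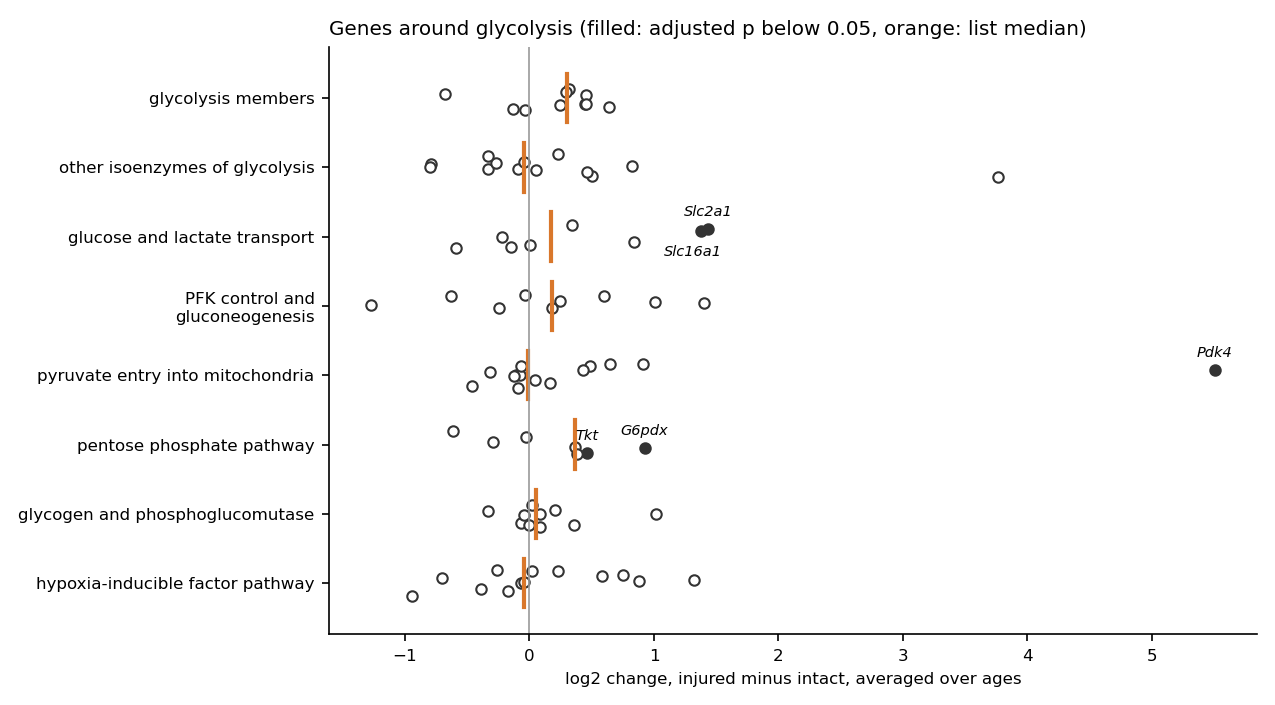
The edgeR log2 change averaged over ages for each tested gene of 8 lists around glycolysis, filled where the adjusted p is below 0.05 and with list medians in orange. The 5 called genes are Slc2a1, Slc16a1, Pdk4, Tkt and G6pdx, and none of them is among the 10 members at the top.

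Tpi1 had the profile over libraries closest to the mean of the members. Each member's log2 CPM was scaled over the 18 libraries and averaged. Pearson's r with this mean, which contains the gene itself, was 0.954 for Tpi1, 0.848 for Pgk1, 0.838 for Pfkp and 0.830 for Gapdh. It was 0.489 for Ldhb and 0.257 for Hk1. Without the second intact library at 12 months the values were 0.909, 0.820, 0.754 and 0.571 for the first 4, and 0.482 and 0.194 for the last 2. Among genes outside the list the closest over 18 libraries were M6pr (0.952), Tecr (0.937), Atp6v1g2 (0.937), Mpp1 (0.923) and Dlst (0.923). Over the 17 other libraries the closest included Msra (0.903), Dlg2 (0.887), Usp5 (0.879) and Tuba4a (0.877), none of which was among the 5 closest over 18. These libraries share depth and composition differences, and the values are a description.

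In single cells the members were detected almost everywhere. Of the 69 cells, 55 had at least 100000 counts outside CT010467.1 and were used, 12 of 18 intact and 17 of 21 injured at 1 month, and 8 of 8 intact and 18 of 22 injured at 1 year. Median depths in these groups were 1555857, 2504750, 7145018 and 3917071 counts. All 10 members had counts in 52 of 55 cells. CPM here is relative to the counts outside CT010467.1 and cannot be set beside the CPM of the low-input libraries. Aldoa had the highest level per kb in 44 of 55 cells, Ldhb in 8, Tpi1 in 2 and Pkm in 1. Median levels per kb were 744 CPM per kb for Aldoa, 309 for Tpi1, 286 for Pkm, 236 for Gapdh and 173 for Ldhb. They were 158 for Eno2, 99.0 for Pgk1, 89.5 for Gpi1, 54.3 for Pfkp and 29.5 for Hk1, so Aldoa was again highest and Pfkp and Hk1 lowest.

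The cells of a group come from animals that the labels do not name, so a group was treated as a single sample and groups were not tested against each other. The 10 members summed to a median of 10408 CPM in intact and 10612 in injured cells at 1 month, and to 10008 and 7383 at 1 year. The ranges over cells were 16.6 to 15849, 651 to 15664, 2156 to 14074 and 1787 to 15124 CPM, so the groups overlapped throughout. Pgk1 had medians of 215 and 277 CPM in intact and injured cells at 1 month, and of 211 and 168 at 1 year. Pkm had medians of 1124 and 2039 CPM at 1 month and of 1427 and 1250 at 1 year. For both genes the injured median was the higher one at 1 month and the lower one at 1 year. Of the 18 injured cells at 1 year, 4 had neuron marker sums of 2071 to 7431 CPM (median of the group 25748) below their summed satellite glia and Schwann cell markers, against 1 of 8 intact cells (4089 CPM, median 28798). Without these cells and the 1 such injured cell at 1 month, a choice made after the values were seen, the 1-year medians in intact and injured cells were 1429 and 1488 CPM for Pkm, so that its direction turned. They were 219 and 187 CPM for Pgk1, 2704 and 2301 for Aldoa and 10184 and 8825 for the sum of the members. Aldoa had medians of 3406 and 3071 CPM at 1 month and of 2694 and 2097 at 1 year, higher in the intact cells at both ages. Hk1 had a median of 252 CPM over all 55 cells and a range of 0 to 999.

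Injury markers were read in the single cells as a check on the labels. Pooled values use all 69 cells, while detection and medians use the 55 cells of sufficient depth. Atf3, an injury-induced transcription factor, had 72.4 CPM in counts pooled over intact and 805 over injured cells at 1 month, and 62.5 and 80.6 at 1 year (exact Poisson intervals 69.6 to 75.2, 798 to 813, 60.5 to 64.6 and 78.8 to 82.5, which cover counting error only). Sprr1a was detected in 3 of 12 intact and 11 of 17 injured cells at 1 month, and in 5 of 8 intact and 7 of 18 injured cells at 1 year. Pooled Sprr1a was 0.908 and 1853 CPM at 1 month, and 0.178 (exact Poisson interval 0.0852 to 0.327) and 5.40 (4.94 to 5.90) at 1 year. When per-cell CPM was summed instead, 1 of the 18 injured cells at 1 year held 97.0% of it, at 1554 CPM. This is a share of CPM and not of the pooled counts, in which deep cells weigh more. Median Atf3 was 39.6 CPM in intact and 87.3 in injured cells at 1 month, and 51.6 and 30.6 at 1 year. At 1 year the pooled levels of both genes were thus higher in cells labelled injured, while the share of cells with Sprr1a and the median of Atf3 were lower. The Sprr1a shares were not compared at equal depth. Intact cells at 1 year held 10 Sprr1a counts in all, at most 0.773 CPM in a cell, and median depths were 7145018 in intact and 3917071 in injured cells. The Atf3 medians at 1 year include the 4 injured and 1 intact cells with more glial than neuron markers.

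**Figure D5:**
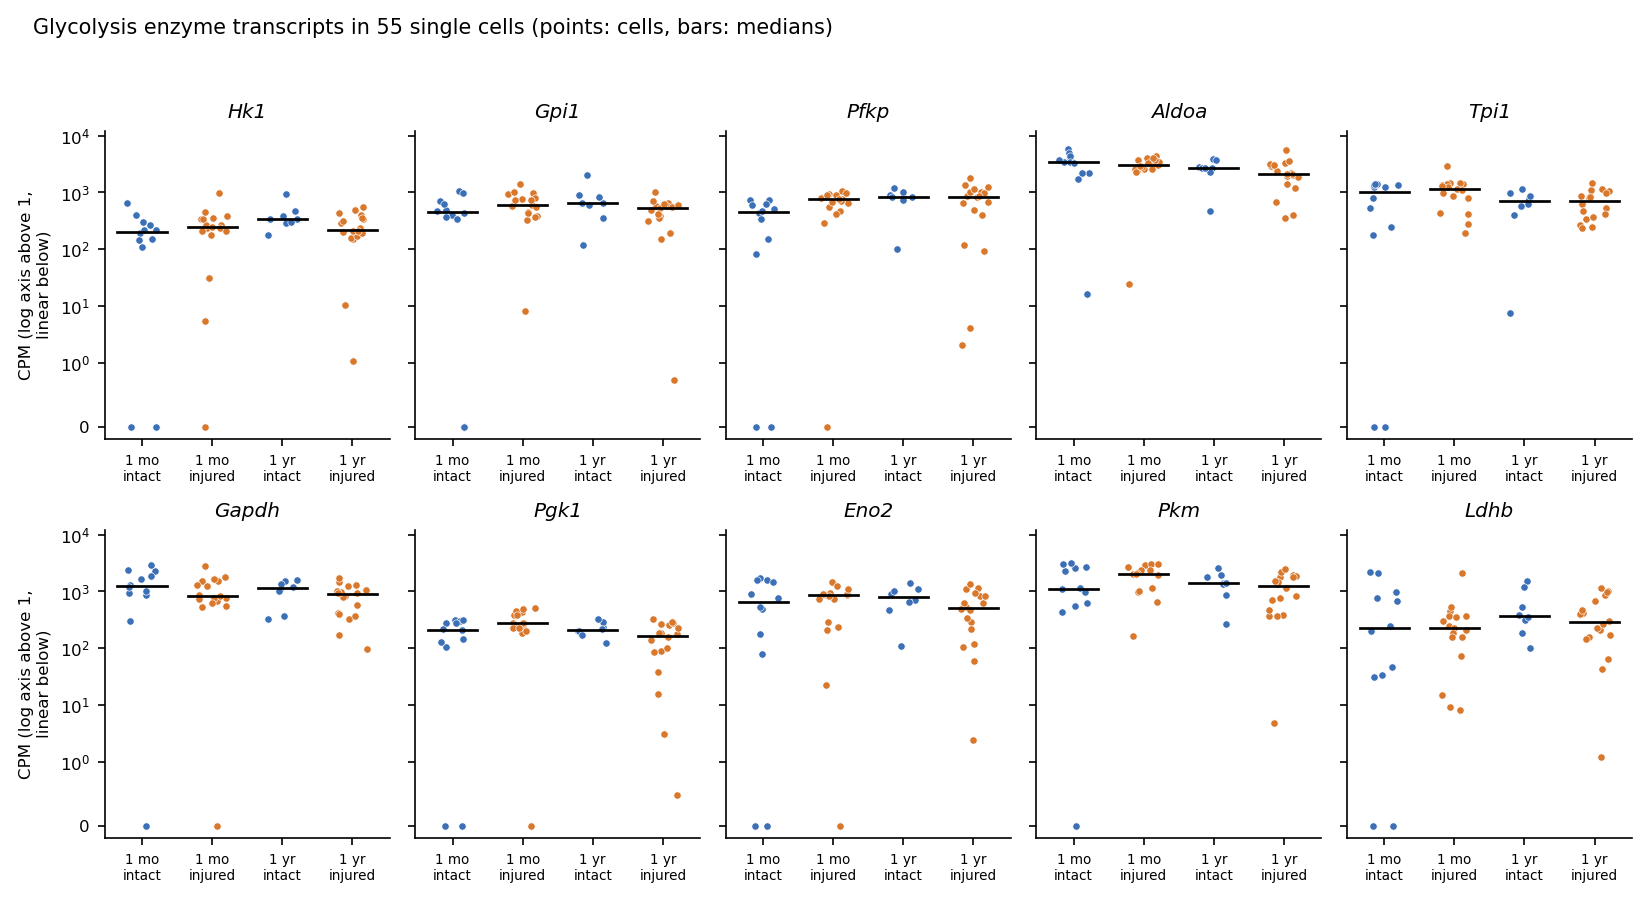
CPM outside CT010467.1 of each member in 55 single cells, on an axis that is logarithmic above 1 and linear below, by group, with points for cells and bars for medians. Aldoa lies highest, with a median of 2759 CPM over all cells, and single cells without a given member lie at 0.

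Isoenzyme shares were also read in each cell. Cells with at least 20 counts behind a share were used. Hk1 held more than 90% of hexokinase counts per kb in 50 of 50 cells. Aldoa did so among aldolases in 40 of 54 cells, and in 1 cell its share was 0.746%. The Eno2 share had a median of 43.8% and ranged from 1.20% to 75.3%, and it was below 10% in 3 of 51 cells. The Ldhb share had a median of 56.0% and ranged from 1.11% to 90.4%, below 10% in 6 of 51 cells. The Pfkp share, which rests on the exon lengths given above, had a median of 41.8% and ranged from 0.221% to 100%. Counts of both forms were thus present in the median cell at the enolase and lactate dehydrogenase steps.

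A few cells stood apart from the label of sensory neuron. Tubb3, a neuronal tubulin, was detected in 54 of 55 cells, and at least 10 of the 12 neuron markers in 52 of 55. Neuron marker sums were lowest in 7 of 55 cells, at 1068 to 7431 CPM. The 1 injured cell at 1 month with the low Aldoa share had 3 of 12 neuron markers, summing to 1068 CPM, a Schwann marker sum of 12501 CPM against a median of 1287 over all cells, and 2929 CPM of Aldoc. Its 10 glycolysis members summed to 651 CPM. The intact cell at 1 month without Tubb3 had 6 of 12 neuron markers, summing to 1611 CPM, and counts of only 1 member, Aldoa, at 16.6 CPM. These are the shallowest of the 7, with 119832 and 120424 counts.

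The other 5 were 1-year cells with at least 10 of 12 neuron markers detected and 2744775 to 6256975 counts. Injured cells 18 and 19 had satellite glia marker sums of 42684 and 50576 CPM, against a median of 1112 over all cells, and neuron marker sums of 3700 and 2071 CPM. Their members summed to 2154 and 3406 CPM. Injured cell 21 had 14324 CPM of satellite glia markers, 5271 of neuron markers and 1787 of members. Injured cell 20 had 15415 CPM of Schwann markers and 7431 of neuron markers, and its members reached 5177 CPM. Intact cell 8 had 7517 CPM of satellite glia markers, 4089 of neuron markers and 2156 of members. Injured cell 17 had a high satellite glia sum too, 27823 CPM, and yet a members' sum of 7544 CPM, close to the median of its group. In all 7 cells with low neuron marker sums the members' sum was below the median of the cell's own group, and the part of cell identity and of depth in this was not tested.

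Across the 55 cells each member correlated positively with the others, Eno2 and Pkm most closely. Spearman's rho between a member and the sum of the other 9 was 0.817 for Eno2, 0.801 for Pkm, 0.774 for Tpi1 and 0.725 for Pgk1. It was 0.672 for Aldoa, 0.540 for Ldhb, 0.534 for Gapdh, 0.510 for Gpi1, 0.417 for Pfkp and 0.330 for Hk1. With Nefh, the heavy neurofilament of large myelinated neurons, rho was 0.621 for Eno2, 0.530 for Pkm and 0.507 for Ldhb, and 0.0965 for Aldoa and 0.116 for Pgk1. With Tubb3, rho was 0.791 for Tpi1, 0.788 for Pkm, 0.737 for Pgk1, 0.734 for Aldoa, 0.664 for Gpi1 and 0.544 for Eno2. It was 0.403 for Pfkp, 0.350 for Gapdh, 0.346 for Hk1 and 0.215 for Ldhb. The cells share libraries' depth and composition differences, and these values are descriptions over cells of 4 groups.

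Counting reads by gene name leaves limits for single members. Pseudogenes named for a member held few counts over the 18 libraries: 168 for Pgk1-rs7 against 28400 for Pgk1, 21 for Gapdh-ps15 against 217856 for Gapdh and 1 for Aldoa-ps4 against 299485 for Aldoa. Because counting was unstranded and each read had to map to 1 place, reads lost to such copies cannot be seen. Features that overlap a member on the other strand held 12477 counts for Fam57b at Aldoa, 8358 for Iffo1 at Gapdh, 6462 for Pitrm1 at Pfkp and 1264 for Spsb2 at Tpi1. Reads from such pairs cannot be told apart where exons overlap.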

How the data were processed

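The authors deposited raw counts of read pairs for each gene, not normalised, of 18 low-input libraries and 69 single cells. Per the file headers, the authors counted read pairs with featureCounts 1.5.2 over exons summed by gene name, from the GENCODE vM16 annotation with 92 ERCC spike-ins added. The submitters' processing notes name Trim Galore, STAR, featureCounts and Bismark, and the build mm10, with no versions. The deposited exon length (bp) was used for levels per kb. The 136 RNA samples carry 87 names, 1 count column each, and 0 columns were left unused; 94 methylation samples were not analysed here. Libraries labelled 1 year in part and 12 months in part are called 12 months.

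The 18 low-input libraries were fitted together with edgeR 4.0.16 (R 4.3.3): filterByExpr, TMM scaling, quasi-likelihood fits (robust) with a mean per group for 6 groups, and Benjamini-Hochberg adjustment over all 14212 genes tested within a comparison, with calls at an adjusted p below 0.05. The biological coefficient of variation was 0.543, with 12 residual degrees of freedom. CPM is relative to TMM-scaled library sizes, and log2 changes carry edgeR's prior count. For isoenzyme shares, conditions were permuted exactly within each age. Alternatives were other scalings, no filter, DESeq2 1.42.0, limma-voom (limma 3.58.1), a replicate block, the share of CT010467.1 as a covariate and leaving out each library, and, for cells and chosen after seeing the data, leaving out those with more glial than neuron markers. Single cells were pooled, with exact 95% Poisson or Clopper-Pearson intervals for counting error only, and per-cell CPM used cells with at least 100000 counts outside CT010467.1. The scripts were tested on simulated data.

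Pairing by replicate number was checked with the correlation of same-numbered libraries' deviations from their group means over 2365 genes. It was 0.109, 0.371 and 0.328 at 1 month, so the numbers were taken to pair libraries there, on these correlations alone. It was -0.432, -0.241 and -0.0159 at 8 months and -0.0852, -0.0614 and 0.0783 at 12 months, where the numbers were not taken to pair libraries. The main fit and the permutation of shares used no pairing at any age, 1 month included. The replicate block instead paired libraries by number within every age, 8 and 12 months included. Calls lost with the block thus rest in part on pairs that these correlations did not show. A block at 1 month alone was not tested. The text names all 10 members, the genes of the pathway lists called in the averaged comparison, isoenzymes of members, and the 5 genes closest to the members' mean profile. One gene that this rule names is not reported here. Slc2a1 by age, Pfkfb4, the cells that stand apart and the marker genes called were chosen after their values were seen. The members and lists were chosen with earlier results of these data known.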

Additional observations from a re-analysis of the deposited data

Results flagged for a closer look

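In the 8 intact cells at 1 year, 4 single values lay far from the other 7 by Dixon's test. In the sixth cell Hk1 was at 934 CPM (median of the 8 cells 341.5) and Gpi1 at 2017 CPM (median 655.7), each the highest of the group. In the eighth cell Pfkp was at 100 CPM (median 834) and Aldoa at 473 CPM (median 2694), each the lowest, and the 10 members summed to 2156 CPM there. That cell had a neuron marker sum of 4089 CPM (median 28798), 78.8 CPM of Tubb3, and the highest satellite glia and Schwann marker sums of its group, 7517 and 4309 CPM. The part of these in its values was not tested. Of the 10 members checked in this group, chance marks about 1 in 20, and members measured in the same cell are not independent.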

How the results depend on the processing

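The number of members called was the same in 85 of 91 alternatives other than leaving out a library, and in 194 of 198 fits without 1 library. ERCC scaling called 10 members averaged over ages (94.9% of all genes), 10 at 12 months (96.2%) and 10 for intact libraries at 12 against 1 months (89.9%). DESeq2 called 1 averaged over ages (Pgk1) and 1 for intact libraries at 12 against 8 months (Hk1), and TMM without CT010467.1 called 1 there (Hk1, adjusted p = 0.0453). Leaving out 1 library gave 0 to 1 calls in these 2 comparisons and 0 in the others. With the CT010467.1 share as a covariate the averaged log2 change turned to -0.40 for Gpi1, -0.29 for Pfkp, -0.91 for Tpi1, -0.88 for Gapdh, -0.30 for Pgk1 and -0.33 for Pkm; the cause was not tested. ERCC scaling turned Aldoa to 2.70, Eno2 to 2.98 and Ldhb to 2.18, with the median of all genes at 2.896. Eno2 turned to 0.0209 with limma-voom and ranged from -0.13 to 0.21 without single libraries. The hexokinase share difference ranged from -0.068 to 0.276 percentage points, and that of lactate dehydrogenase from -5.14 to 4.02, without single libraries. Relative to all endogenous counts, the members' summed median in cells was 6702, 6510, 5149 and 2122 CPM for intact and injured cells at 1 month and at 1 year. Leaving out 6 cells with more glial than neuron markers, a choice made after seeing the data, moved the summed medians by less than the spread between cells. Depth limits Hk2 and Pdk4 most.

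With the replicate block, 0 members were called in each injury comparison. How many of all genes were called with the block is not given here. Averaged over ages, 7 of 8 known nerve injury genes were called with it. The averaged log2 change was 0.67 for Pgk1 (adjusted p = 0.222) and 0.45 for Pkm (adjusted p = 0.341), and Eno2 turned to 0.0439. Of the called genes around glycolysis, the block ended the calls on Slc16a1, Tkt and Pdk4 and kept those on Slc2a1 and G6pdx. The block paired libraries by number at every age, including ages at which the correlations showed no pairs.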
